A study of Mus musculus with 2 samples.

Results

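The mRNAs of 8 genes of the LIN28 and IGF2BP families and their partners were followed through the reversion of primed mouse stem cells to the naive state. The genes were taken by symbol from the 33963 gene rows of a single-cell count table: Lin28a, Lin28b, L1td1, Trim71, Hmga2, Igf2bp1, Igf2bp2 and Igf2bp3. All 8 were present, with 3970 (Lin28b) to 124138 (Hmga2) summed reads.

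The table held 17720 cells of 5 tagged populations, captured together in 1 cDNA library. Naive mESCs were of a Rex1-GFP line, and primed mEpiSCs were of the Oct4GIP line, in which an Oct4 promoter drives a GFP and puromycin resistance transgene. Per the methods, Oct4GIP cells were maintained on fibronectin with FGF2 and Activin A. For reversion they were plated on mouse embryonic fibroblasts (MEF) for 1 day. They were then treated with the AMPK activator AICAR and LIF for 8 days (d8) or 16 days (d16). The d16+10p population was grown from d16 cells over 10 passages in 2iL, the naive culture condition that combines LIF with inhibitors of MEK and GSK3. The methods give 2iL for the naive mESCs as well. The labels give 129/Ola as the strain of the whole library. Tags were carried by streptavidin on antibodies against CD9 and CD63. Each population was 1 sample, so no difference below has a replicate check, no test was made, and intervals (95%) cover counting error only.

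LIN28A and LIN28B are RNA-binding proteins that block the maturation of let-7, a family of microRNAs that builds up as cells differentiate. Let-7 in turn represses mRNAs with matching sites, among them Lin28 mRNAs and those of many growth genes, so that LIN28 and let-7 hold each other down. Proteins of the IGF2BP family bind and stabilize mRNAs, are made mainly in the embryo, and are themselves known targets of let-7.

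The let-7 sequences are shown because their seed, bases 2 to 8 from the 5′ end, is the part that pairs with target mRNAs. Among the distinct mature sequences in RefSeq (GRCm38.p6), 10 share the seed GAGGUAG, and 1, let-7j, has GAGGUAU. Capitals mark the seed in the following 4 of them.
let-7a-5p: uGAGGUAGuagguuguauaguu
let-7g-5p: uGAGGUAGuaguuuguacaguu
miR-98-5p: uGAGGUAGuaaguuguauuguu
let-7j: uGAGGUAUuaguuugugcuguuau

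The reverse complement of the common seed, CTACCTC, was searched on the mRNA strand of the 3′ UTR in GENCODE M21 (GRCm38), taking the longest one annotated for each gene. It was found in 7 of 8 members, against 9.03% of 21020 protein-coding genes, which have UTRs of many lengths. Most members are known let-7 targets, so this share follows in part from the choice of genes. Lin28b, Trim71, Hmga2 and Igf2bp1 each held 4 matches. Among genes with a 3′ UTR of 80 to 120% of the same length, at least 4 were held by 0.236% of 1271 genes for Lin28b, 0.504% of 793 for Trim71, 0.134% of 2245 for Hmga2 and 0.355% of 564 for Igf2bp1. Lin28a held 2, and 2.06% of 2429 such genes held 2 or more. Igf2bp2 and Igf2bp3 held 1 each, and of genes with UTRs of like length 12.1% and 13.3% held a match. L1td1, with an annotated 3′ UTR of 364 bases, held none. These letters are a description and no measurement of binding. The first match of each gene is given, with the 7 matching bases in capitals and 15 bases before and 1 after; all lie on the minus strand.
Lin28a, chr4:134005189-134005211: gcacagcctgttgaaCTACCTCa
Lin28b, chr10:45381022-45381044: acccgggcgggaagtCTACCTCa
Trim71, chr9:114512472-114512494: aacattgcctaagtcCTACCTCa
Hmga2, chr10:120364224-120364246: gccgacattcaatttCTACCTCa
Igf2bp1, chr11:95961778-95961800: gctgtgcgaagtaaaCTACCTCa
Igf2bp2, chr16:22059473-22059495: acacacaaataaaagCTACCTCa
Igf2bp3, chr6:49086787-49086809: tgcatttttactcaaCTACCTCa

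Levels of let-7 itself were not measured here: the table held 0 rows of let-7 precursor genes. L1td1, the gene without a match, lies on chromosome 4 (98726734 to 98738480, plus strand), as does Lin28a.

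The naive tag was found on 801 cells, the primed tag on 1826, the d8 tag on 9627, the d16 tag on 4315 and the d16+10p tag on 1151, while the labels state that 500, 500, 9000, 9000 and 1000 were put in. Median depth lay between 10185 reads per cell (d16) and 21551 (d16+10p), and no cell barcode was shared between tags. The primed tag was mixed, so that naive, primed and d16+10p cells were read mainly in the cluster where their own tag was most enriched among clusters high in Pou5f1 (Oct4), called home cells here. These were 515 naive, 421 primed and 886 d16+10p cells. In the primed home cluster Fgf8 was at 62.4 CPM (reads of the gene per 1000000 reads) and Pou3f1 at 67.1 CPM, both markers of primed cells, and the naive marker Zfp42 was at 27.9 CPM. In the naive, d16 and d16+10p home clusters Fgf8 was at 3.54 to 5.08 CPM, Pou3f1 at 8.35 to 11.1 CPM and Zfp42 at 435 to 686 CPM. Among the other primed markers read, Fgf5 (45.5 CPM) and Dnmt3b (173 CPM) were also higher in the primed home cluster than in these. Otx2, at 18.0 CPM there, was close to the d16 (16.6 CPM) and d16+10p (16.7 CPM) home clusters. Fgf5, Otx2 and Fgf8 were higher in cluster 9 (359, 228 and 94.0 CPM), mostly d8 cells, and Pou3f1 was at 69.8 CPM in cluster 13. The d16 cells were split by the naive marker Dppa5a into 1278 cells with at least 1000 CPM (Dppa5a-high) and 3037 below (Dppa5a-low); 184 cells lay between 1000 and 2000 CPM and 111 between 500 and 1000 CPM. Of the Dppa5a-high cells, 1137 were in the d16 home cluster, which was led by the germ cell genes Smc1b, Dazl, Hormad1 and Stra8. The d8 population had no home cluster and was read whole. In sums over a tag, fewer cells of a type and less RNA per cell cannot be told apart.

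Reads of macrophage genes, such as free RNA in a pooled library can leave, were found in each pluripotent group. The 8 macrophage markers were at 10.4 to 68.7% of their level over all cells in the naive, primed and d16+10p home cells and the Dppa5a-high cells, with group medians of 20.7 to 26.8%, and none was at 0. The macrophage-like cluster, 941 cells of a differentiated type, therefore served as a background for the members other than Hmga2. Only for Igf2bp1 and Igf2bp2 was it the lowest of the clusters with 50 cells or more. L1td1 was at 18.6 CPM in it and 14.2 CPM in cluster 0, and Igf2bp3 at 50.6 CPM in it and 27.2 CPM in cluster 14. A share within its interval therefore does not show that a gene was absent. The part of free RNA, doublets and tag errors in the ratios was not tested.

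Lin28a, one of the pair that blocks let-7, was highest in primed home cells, at 139 CPM (132 to 147). It was at 12.5 CPM (10.7 to 14.6) in naive home cells, 16.6 CPM (16.0 to 17.2) in d8, 8.30 CPM (7.38 to 9.31) in d16 Dppa5a-low, 19.01 CPM (17.2 to 20.98) in Dppa5a-high and 19.6 CPM (17.8 to 21.5) in d16+10p home cells. Primed home cells thus stood apart from the other 5 groups, which all lay at 19.6 CPM or less. Reads were detected in 46.4% (41.5 to 51.3%) of primed home cells after each cell was thinned to 5000 reads, and in 74.6% without thinning. The thinned share was 5.89% in naive home, 7.35% in Dppa5a-high and 7.67% in d16+10p home cells, low but above the 2.17% (1.29 to 3.40%) of the macrophage-like cluster. In Dppa5a-low cells it was 2.305%, within that background.

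Lin28b, its paralog, was at 24.7 CPM (21.7 to 28.0) in primed home cells and 14.4 CPM (13.9 to 14.99) in d8. It was at 4.99 CPM (3.84 to 6.37) in naive home, 7.02 CPM (6.17 to 7.95) in Dppa5a-low, 6.98 CPM (5.89 to 8.21) in Dppa5a-high and 7.90 CPM (6.78 to 9.16) in d16+10p home cells. The last 3 overlapped in their counting intervals. Thinned shares were 13.1% (10.0 to 16.8%) in primed home cells and 6.24% in d8, against 1.44% (0.748 to 2.51%) in the macrophage-like cluster. The shares of naive home (2.55%), Dppa5a-low (2.47%) and Dppa5a-high cells (2.67%) had intervals that overlapped this background, and that of d16+10p home cells (4.69%, 3.39 to 6.31%) did not. Among 412 thinned primed home cells, 31 had reads of both genes, and Lin28b was read in 16.2% of cells with a Lin28a read and 10.4% of cells without one. Among 874 thinned d16+10p home cells, 67 had a read of Lin28a and 41 of Lin28b, and among 509 naive home cells 30 and 13. No cell of either group had reads of both, which allows shares of up to 0.343% and 0.589% of cells with both reads at this depth and sets no limit on cells that express both.

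L1td1, an RNA-binding protein derived from a LINE-1 element that associates with LIN28, had its highest level in primed home cells as well, at 379 CPM (367 to 392). It was at 189 CPM (181 to 196) in naive home, 119 CPM (115 to 124) in d16+10p home and 99.3 CPM (95.1 to 104) in Dppa5a-high cells, and at 25.9 CPM (25.2 to 26.6) in d8 and 18.9 CPM (17.4 to 20.4) in Dppa5a-low cells. No 2 of these intervals overlapped. The thinned share was 70.6% in primed home, 56.6% in naive home, 37.6% in d16+10p home and 30.7% in Dppa5a-high cells. In d8 it was 9.46% (8.86 to 10.1%), above the 5.54% (4.08 to 7.31%) of the macrophage-like cluster, and in Dppa5a-low cells it was 7.28%, within its interval.

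Trim71 (LIN41), a ubiquitin ligase and mRNA repressor that is a classic let-7 target, differed less among pluripotent groups. It was at 91.5 CPM (87.6 to 95.5) in d16+10p home, 80.9 CPM (77.1 to 84.9) in Dppa5a-high, 75.8 CPM (70.5 to 81.4) in primed home and 67.7 CPM (63.3 to 72.4) in naive home cells. Neighbours in this order had overlapping intervals, except d16+10p home and Dppa5a-high cells. The level was 32.5 CPM (31.6 to 33.3) in d8 and 18.4 CPM (17.0 to 19.8) in Dppa5a-low cells, and the thinned share of the latter, 7.08%, was within the background of 6.38% (4.81 to 8.26%).

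Hmga2, a chromatin protein of mesenchymal and embryonic tissue and a strong let-7 target, followed another order. It was highest in d8, at 548 CPM (544 to 551), followed by Dppa5a-low cells at 211 CPM (207 to 216) and primed home cells at 209 CPM (200 to 218), which overlapped. It was at 142 CPM (137 to 147) in Dppa5a-high, 120 CPM (114 to 127) in naive home and 114 CPM (110 to 118) in d16+10p home cells. Hmga2 reads were also found in 49.8% (46.4 to 53.3%) of the macrophage-like cluster after thinning, at 292 CPM. The shares in naive home (42.0%), primed home (53.9%, 48.9 to 58.8%), Dppa5a-low (46.9%), Dppa5a-high (44.6%) and d16+10p home cells (39.4%) overlapped this interval or lay below it. Of the 6 groups d8 alone, at 64.2% (63.2 to 65.2%), lay above it. As the summed level of the macrophage-like cluster was also above that of the other 5 groups, it gives no background level for Hmga2, and the part of free RNA in their Hmga2 reads was not tested.

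Igf2bp1, which binds Igf2, Actb and other mRNAs, was high in every pluripotent group. It was at 450 CPM (438 to 462) in naive home, 402 CPM (393 to 410) in d16+10p home, 387 CPM (375 to 400) in primed home and 341 CPM (333 to 349) in Dppa5a-high cells, of which d16+10p home and primed home cells overlapped. The level was 169 CPM (167 to 170) in d8 and 123 CPM (120 to 127) in Dppa5a-low cells. Thinned shares of 72.7 to 84.7% in the 4 pluripotent groups, 49.8% in d8 and 39.4% in Dppa5a-low cells were all above the 23.1% (20.3 to 26.1%) of the macrophage-like cluster.

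Igf2bp2, the family member that is also made in adult tissues, varied least. Over whole tags, with d16 split by Dppa5a, its highest level was 1.66 times its lowest, while the other 7 members spanned 2.74-fold (Igf2bp3) to 8.71-fold (L1td1). It was at 76.6 CPM (72.9 to 80.5) in Dppa5a-high, 66.5 CPM (65.4 to 67.7) in d8 and 61.2 CPM (58.6 to 63.8) in Dppa5a-low cells. Primed home (48.0 CPM, 43.8 to 52.4), d16+10p home (45.7 CPM) and naive home cells (44.6 CPM) did not differ beyond counting error. The thinned share was 27.7% in Dppa5a-high cells and 16.5% (13.1 to 20.4%) in primed home cells, the latter overlapping the background of 12.9% (10.7 to 15.3%).

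Igf2bp3, the third paralog, was at 151 CPM (144 to 159) in primed home and 142 CPM (135 to 149) in naive home cells, which overlapped. It was at 98.2 CPM (94.1 to 102) in d16+10p home, 68.7 CPM (65.2 to 72.4) in Dppa5a-high, 56.5 CPM (55.4 to 57.6) in d8 and 46.6 CPM (44.4 to 49.0) in Dppa5a-low cells. The expanded cells thus lay between the d16 cells and both stem cell lines. Thinned shares were 47.8% in primed home, 47.3% in naive home and 36.0% in d16+10p home cells. Those of Dppa5a-high (23.1%), d8 (22.1%) and Dppa5a-low cells (16.9%) overlapped or lay below the interval of the macrophage-like cluster (19.3%, 16.6 to 22.1%). The summed level of that cluster, 50.6 CPM, was above that of Dppa5a-low cells, so it gives no background level for Igf2bp3 in them.

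**Figure D1:**
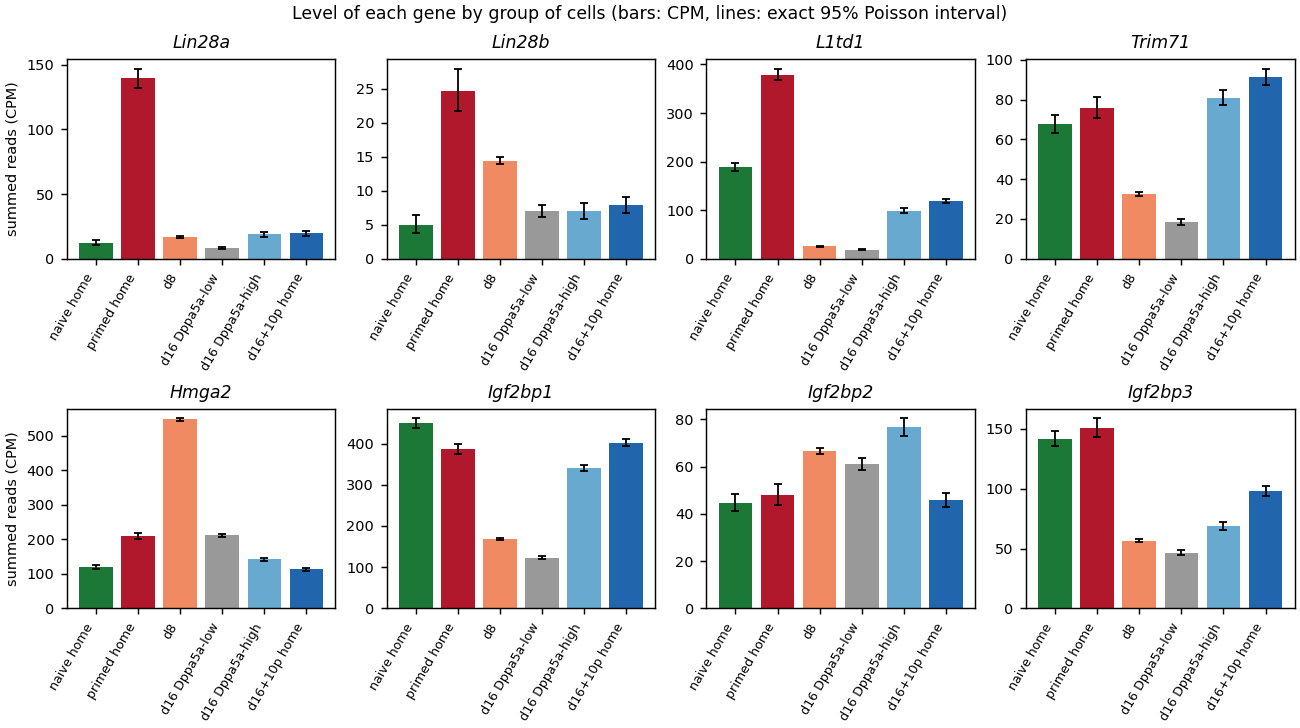
Summed reads of each gene in CPM (vertical axis, linear) in 6 groups of cells, with exact 95% Poisson intervals as lines. Lin28a, Lin28b and L1td1 peak in primed home cells (139, 24.7 and 379 CPM), Hmga2 in d8 (548 CPM), and Trim71 and Igf2bp1 are low in d8 and Dppa5a-low cells.

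**Figure D2:**
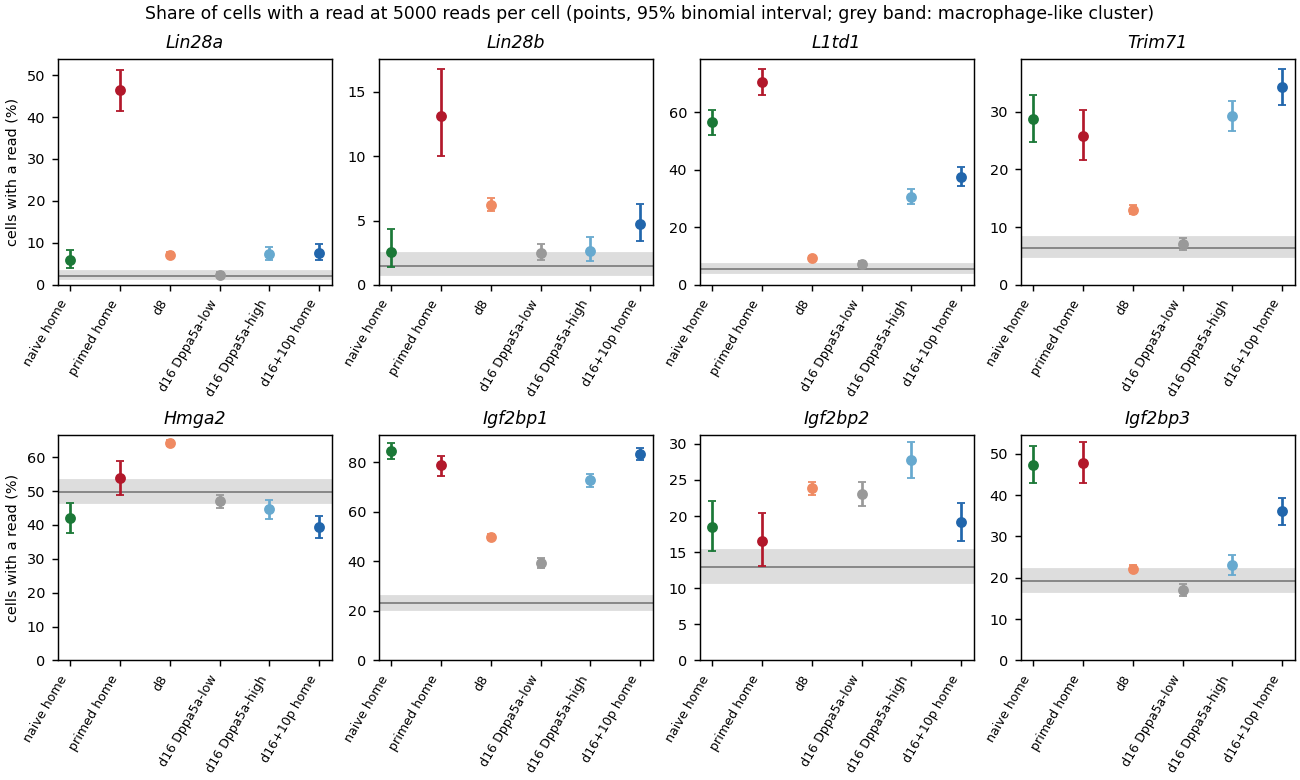
Share of cells with a read of each gene in percent, after thinning every cell to 5000 reads, with 95% binomial intervals; the grey line and band are the share and interval of the macrophage-like cluster. Lin28a in primed home cells (46.4%) stands far above the band (2.17%), whereas Hmga2 is above it only in d8 (64.2% against 49.8%).

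The first comparison set primed home cells beside naive home cells. The primed cells were of the Oct4GIP line and the naive cells of the Rex1-GFP line, each in its own culture. State, line and culture therefore cannot be told apart here. A gene was called where the CPM of the groups were at least 2-fold apart, provided that one of them reached 20 CPM and both together 100 reads. Of 8 members tested, 3 were higher in primed home cells and 0 lower, where 4.8% of 7443 genes were higher and 6.78% lower. The members' median log2 ratio was 0.48, against 0.02 over all genes tested. Lin28a was higher by a log2 ratio of 3.37 (interval 3.24 to 3.72) and Lin28b by 2.1 (1.90 to 2.73). Their naive levels of 12.5 and 4.99 CPM stood beside 5.79 and 4.23 CPM in the macrophage-like cluster. Lin28a and Lin28b thus passed the minimum of 20 CPM through the primed home cells alone. L1td1 was at the threshold, with a log2 ratio of 1.00 (0.93 to 1.08), and fell under it in 6 of the 7 alternatives that recompute the ratio, to 0.01 over all cells of each tag. The other 5 members were within 2-fold: Hmga2 (log2 ratio 0.79), Trim71 (0.16), Igf2bp2 (0.10), Igf2bp3 (0.09) and Igf2bp1 (-0.21). The chromosome of Igf2bp3, 6, lay -0.27 from the autosomal median log2 ratio in this comparison (366 genes). That of Igf2bp1, 11, lay -0.26 from it (617 genes). Their part in these ratios was not tested. Primed and naive home cells, of different lines, thus differed in Lin28a and Lin28b far more than in the 3 Igf2bp genes.

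At d8 Pou5f1 was at 56.8 CPM, against 203 CPM over the whole primed tag and 402 CPM in primed home cells, whose cluster was chosen among those high in it. Against primed home cells, 5 of 8 members were lower and 1 was higher, where 9.4% of 7904 genes were lower and 14.7% higher. The members' median log2 ratio was -1.20 (0.09 over all genes tested). L1td1 was lower by a log2 ratio of -3.82 (-3.93 to -3.81) and Lin28a by -2.99 (-3.16 to -2.97), at percentiles 0.0506 and 0.215 of the genes tested. Lin28a, at 16.6 CPM in d8, passed the minimum through the primed home cells alone. Igf2bp3 (-1.40), Trim71 (-1.20) and Igf2bp1 (-1.20) were also lower, and Hmga2 was higher, by 1.38 (1.33 to 1.45). Lin28b (-0.74) and Igf2bp2 (0.46) were within 2-fold. When all primed-tagged cells were taken, 2 members were called, L1td1 and Lin28a. Primed-tagged cells outside the home cluster had Hmga2 at 394 CPM and L1td1 at 43.7 CPM. The paper considered the Oct4-negative cells of the primed population to be MEF feeders. The d8 sums cover all cell types of the tag, and 61.8% of their Hmga2 reads were in d8 cells of cluster 0, described below.

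In the next step, naive-like d16 cells were compared with primed home cells. Of the 8 members, 4 were lower in Dppa5a-high cells and 0 higher, where 3.48% of 7706 genes were lower and 8.55% higher. The members' median log2 ratio was -0.84, against 0.07. The 4 were Lin28a (-2.81, -3.04 to -2.71), L1td1 (-1.92, -2.01 to -1.86), Lin28b (-1.69, -2.13 to -1.52) and Igf2bp3 (-1.12, -1.24 to -1.03), the last being -0.91 over all cells of each tag. Lin28a (19.01 CPM) and Lin28b (6.98 CPM) in Dppa5a-high cells passed the minimum through the primed home cells alone. Trim71 (0.09) differed by less than counting error, and Igf2bp1 (-0.18), Hmga2 (-0.56) and Igf2bp2 (0.67) were within 2-fold. TMM scaling subtracts 0.11 from each log2 ratio of this comparison and turned the sign of Trim71.

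Within d16, Dppa5a-high cells were compared with the other cells of the same culture. Of all d16 cells, 1647 were in cluster 3, led by Fabp7, and 730 in cluster 6, led by Col3a1. Most Dppa5a-low cells were thus of these clusters, and cell type differs across the split. Of 6 members with sufficient level, 3 were higher in Dppa5a-high cells and 0 lower, where 12.1% of 8548 genes were higher and 15.6% lower. The members' median log2 ratio was 1.01, against 0.01. The 3 were L1td1 (2.34, 2.27 to 2.53), Trim71 (2.08, 2.01 to 2.27) and Igf2bp1 (1.46, 1.41 to 1.52). L1td1 (18.9 CPM) and Trim71 (18.4 CPM) were under 20 CPM in Dppa5a-low cells. They passed the minimum through the Dppa5a-high cells alone, so their entry depended on the group where they were high. Igf2bp3 (0.55), Igf2bp2 (0.32) and Hmga2 (-0.57) were within 2-fold. Lin28a (19.01 against 8.30 CPM) and Lin28b (6.98 against 7.02 CPM) were below 20 CPM on both sides of the split. Median depth was 14255 reads in Dppa5a-high and 8691 reads in Dppa5a-low cells, and its part in these values was not tested.

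The members were also read along Dppa5a in d16 cells, from 1574 cells without a Dppa5a read to 833 cells with at least 3000 CPM. L1td1 was at 17.4 and 18.5 CPM in the 2 lowest bins, 28.4 CPM (22.5 to 35.5) between 300 and 1000 CPM of Dppa5a, 77.5 CPM between 1000 and 3000 and 111 CPM above. Trim71 took the same course, from 14.5 over 30.2 to 87.0 CPM, and Igf2bp1 went from 111 over 185 to 353 CPM. Each of these 3 stepped up most between the bins on either side of the split. Lin28a rose from 6.36 CPM (5.10 to 7.84) to 19.3 CPM (17.0 to 21.8), and its largest step, from 8.61 to 16.0 CPM, lay below the split. Lin28b stayed between 6.16 and 9.47 CPM with overlapping intervals in the outer bins, and Hmga2 was at 185 CPM in the lowest bin, 234 CPM in the second and 138 CPM in the highest. Median reads per cell differed between the bins, from 7085 to 14637.

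**Figure D3:**
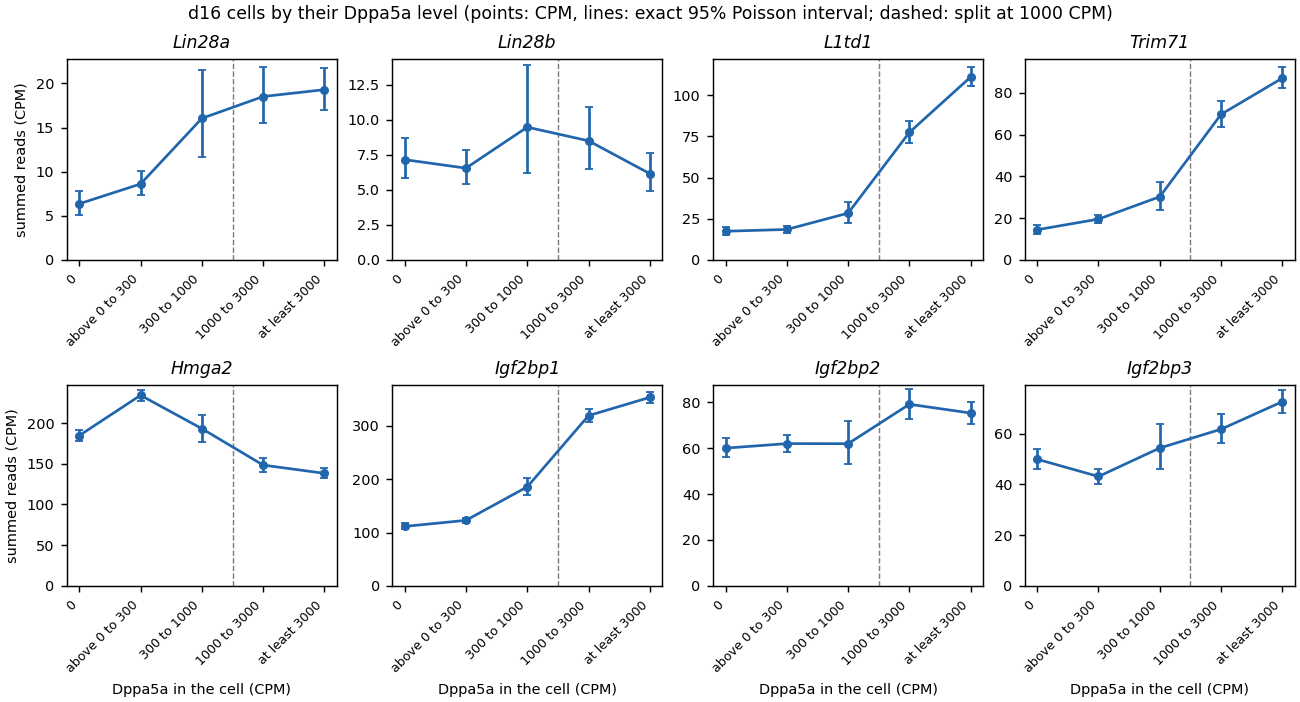
Summed reads of each gene in CPM in d16 cells, by the Dppa5a level of the cell (horizontal axis, 5 bins in CPM), with exact 95% Poisson intervals; the dashed line is the split at 1000 CPM. L1td1, Trim71 and Igf2bp1 step up across the line, Lin28a has its largest step below it (8.61 to 16.0 CPM), and Hmga2 goes from 185 over 234 to 138 CPM.

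After expansion, d16+10p home cells were set beside naive home cells, which were of another line. Of 6 members tested, 0 were at least 2-fold apart, where 0.999% of 7208 genes were higher and 0.957% lower (1.96% in all). The members' median log2 ratio was -0.12, against 0.03. L1td1 was lower by -0.66 (-0.74 to -0.58) and Igf2bp3 by -0.53 (-0.62 to -0.44), and Trim71 was higher by 0.43 (0.32 to 0.55). Igf2bp1 (-0.16) was lower beyond counting error, and Hmga2 (-0.08) and Igf2bp2 (0.04) were not apart. Chromosome 6, where Igf2bp3 lies, lay -0.34 from the autosomal median log2 ratio in this comparison (347 genes), and chromosome 11, where Igf2bp1 lies, -0.19 (602 genes). The part of the chromosomes in these values was not tested. Lin28a was at 19.6 and 12.5 CPM and Lin28b at 7.90 and 4.99 CPM, below the minimum level in both groups.

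Expanded cells were finally compared with the Dppa5a-high cells of d16, the culture from which they were grown. Of 6 members tested, 0 were at least 2-fold apart, where 0.681% of 7487 genes were higher and 1.44% lower (2.12% in all), and the median log2 ratio was 0.21 (-0.07 over all genes tested). Igf2bp3 was higher after expansion by 0.51 (0.42 to 0.61), L1td1 by 0.26 (0.18 to 0.35), Igf2bp1 by 0.24 (0.19 to 0.28) and Trim71 by 0.18 (0.08 to 0.27). Igf2bp2 was lower by -0.73 (-0.86 to -0.63) and Hmga2 by -0.31 (-0.39 to -0.24). TMM scaling subtracts -0.14 from each log2 ratio of this comparison, which raises them, and no tested member changed sign with it. With all cells of each tag, L1td1 (1.15) and Trim71 (1.02) passed 2-fold, since the d16 tag then includes the Dppa5a-low cells.

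**Figure D4:**
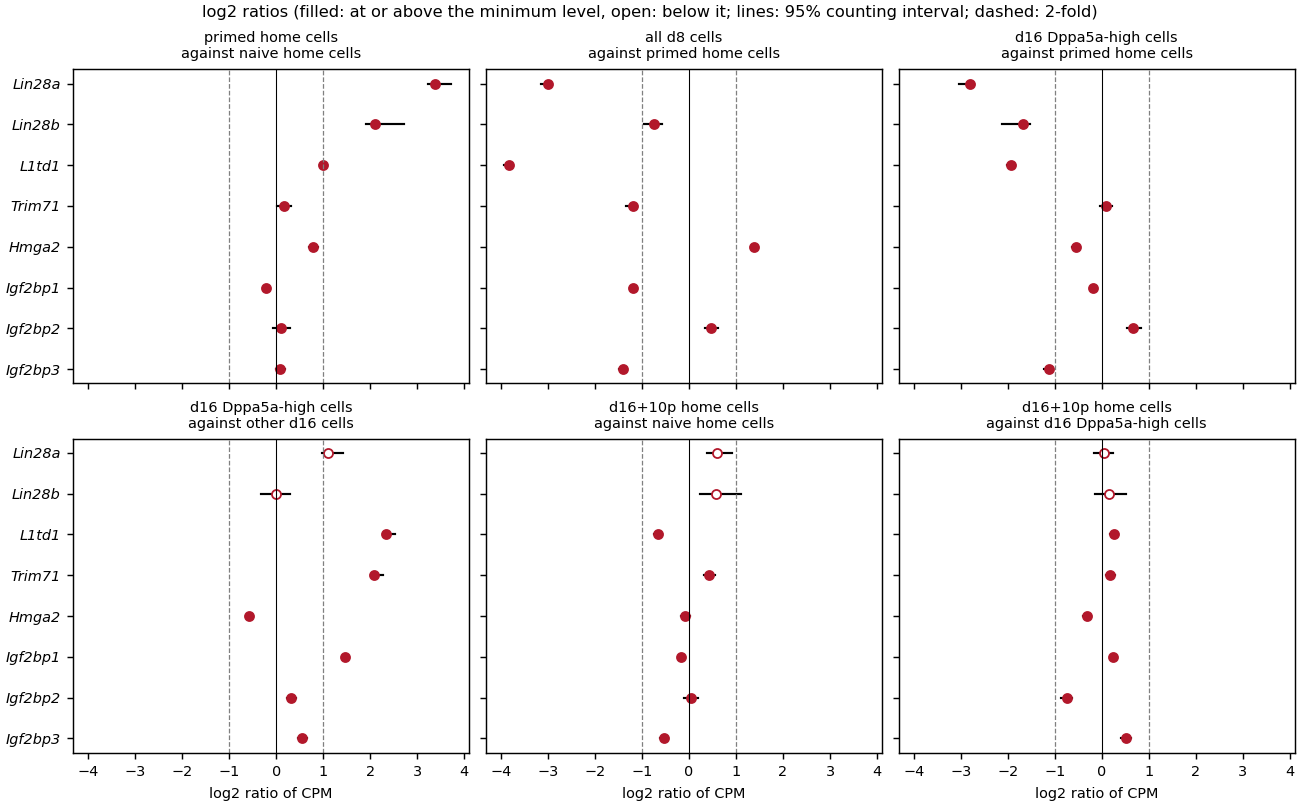
log2 ratios of CPM of the 8 genes (horizontal axis) in 6 comparisons, with 95% counting intervals; dashed lines mark 2-fold, and open circles are genes under the minimum level. Lin28a lies at 3.37, -2.99 and -2.81 in the 3 comparisons with primed cells, and no filled circle passes a dashed line in the 2 comparisons of d16+10p cells.

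Clusters of cells, formed without these genes among the variable genes, showed where the members were read outside the pluripotent groups. Hmga2 had its highest level in cluster 0, at 1326 CPM, which was led by Olr1, Lox and Ccl2 and held 2165 d8 cells. These d8 cells carried 61.8% of all d8 Hmga2 reads. Hmga2 was between 140 and 370 CPM in each of the remaining clusters with 50 cells or more outside the 4 home clusters. Igf2bp2 was highest in cluster 0 too (93.7 CPM), and lowest in the macrophage-like cluster (35.0 CPM). Igf2bp1 was lowest in the macrophage-like cluster as well (64.4 CPM), but was at 76.0 CPM in cluster 0, below its level of 216 CPM over all cells.

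Lin28b was highest in cluster 2, at 31.7 CPM, above the primed home cluster (24.5 CPM). Cluster 2 was led by Fgf15, Lefty1 and Lefty2 and held 1430 d8 and 425 primed-tagged cells. Lin28a outside the primed home cluster was highest in cluster 9, led by Cer1, Lhx1 and Gata6 and called endoderm and mesendoderm-like (39.0 CPM), in cluster 2 (37.8 CPM) and in the epithelial-like cluster 1 (23.9 CPM). In these 3 clusters Trim71 was between 44.4 and 50.8 CPM and Igf2bp1 between 234 and 261 CPM. L1td1 was at 45.7 CPM in cluster 2 and 48.7 CPM in cluster 1, but at 24.2 CPM in cluster 9. Cluster 4 was called smooth muscle-like from Acta2, Tagln and Cnn1. Other smooth muscle markers were low in it (Myh11 0.57, Des 3.10 and Actg2 15.5 CPM), and it also had Krt8 at 1319 and Krt18 at 1452 CPM. This cluster had Lin28b at 18.8 CPM with L1td1 at 15.8 CPM. Thus Lin28a and L1td1, both highest in primed home cells, parted in cluster 9.

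Primed-tagged and d8 cells of the same cluster differed in some members and not in others. The primed tag was on 1826 cells where 500 were put in, and 239 of them were in cluster 6 and 108 in cluster 3, both mostly d16 cells. The part of tag errors in the values below was not tested. In cluster 9 Lin28a was at 79.9 CPM in primed-tagged and 35.2 CPM in d8 cells, while Hmga2 (328 and 341 CPM) and Igf2bp1 (287 and 263 CPM) overlapped. In cluster 2, Hmga2 was at 599 CPM in primed-tagged and 248 CPM in d8 cells. In cluster 1, Hmga2 (184 and 193 CPM), Trim71 (50.3 and 51.6 CPM) and Igf2bp1 (246 and 236 CPM) all overlapped. The primed home cluster held 71.0% of the Lin28a and 82.9% of the L1td1 reads of the primed tag, but 39.0% of its Lin28b and 22.9% of its Hmga2 reads. Cluster 16, 51 d16 and a few other cells, was led by Eif4a3l1 and by genes of a multigene family. It also had the naive markers Dppa5a at 2280 CPM and Zfp42 at 390 CPM, with Nanog at 490 CPM and Pou5f1 at 182 CPM. In it Igf2bp1 was at 358 CPM, within the range of the 4 home clusters, and L1td1 was at 54.4 CPM, lower than in those 4 (103 to 377 CPM).

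**Figure D5:**
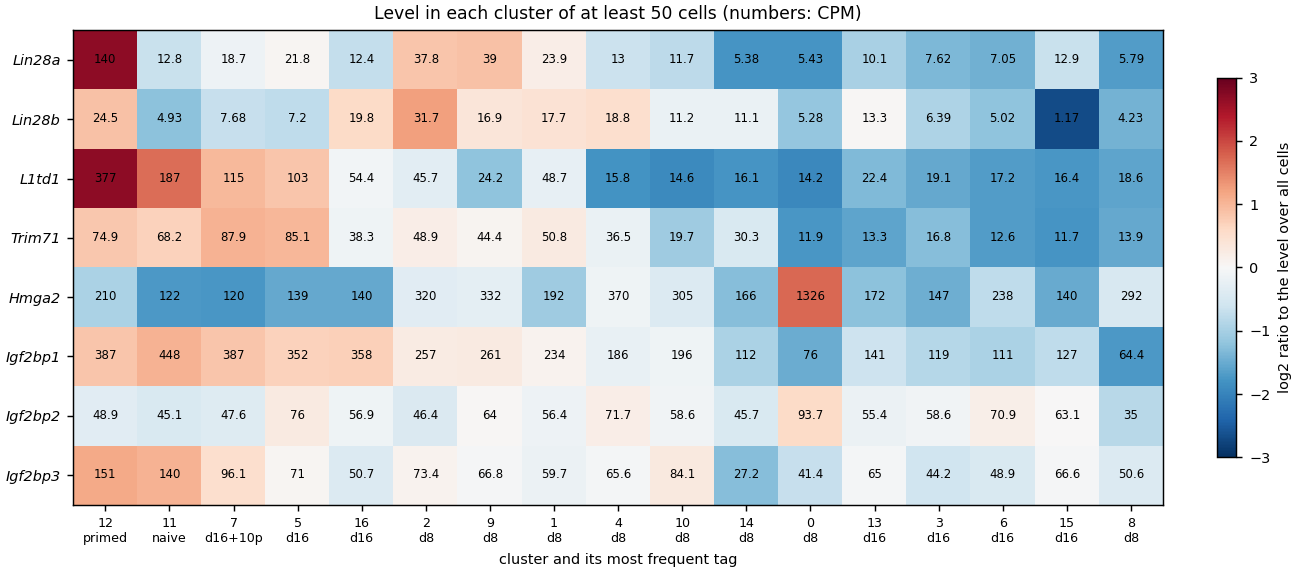
Level of each gene in CPM (numbers) in the clusters of at least 50 cells, with the most frequent tag under the cluster number; colour is the log2 ratio to the level over all cells. Red fields mark Lin28a and L1td1 in cluster 12 (primed home), Hmga2 in cluster 0 (1326 CPM) and Lin28b in cluster 2 (31.7 CPM).

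Over 17 clusters, Trim71 and Igf2bp1 were the most alike pair of members (Pearson's r of log2 CPM 0.88), followed by L1td1 with Trim71 (0.82) and with Igf2bp1 (0.81). Lin28a and Lin28b had r of 0.56, and Hmga2 with Igf2bp1 -0.48. These values describe points that share 1 library. Among 11236 genes, those most like Igf2bp1 were Actl6a (0.97), Nop56 (0.97) and Eftud2 (0.97), and those most like Trim71 were Ftsj3 (0.95), Mybbp1a (0.94) and Hspa14 (0.94). Hmgn5 (0.87) and Thoc3 (0.86) were among the genes most like Lin28a, and Ppp2r3c (0.89), Zbed4 (0.89) and Cdk11b (0.88) were most like Lin28b. Vmn2r97, Gm28625 and Gm19792 (each 0.95) were most like L1td1. Hmga2 was most like Bnip2 (0.90), Has2 (0.88) and Pappa (0.88), each highest in cluster 0. Igf2bp2 (Ryk, 0.78) and Igf2bp3 (Mrpl12, 0.87) had less similar partners.

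The other genes of the pathway were read from 3 lists. Of 24 symbols of let-7 processing and LIN28 partners, 21 were rows of the table, the other symbols being older names of listed genes. The core of this machinery, including Dicer1 (38.5 to 51.0 CPM in the 4 pluripotent groups) and Tut4, a uridyltransferase that marks let-7 precursors bound by LIN28 (72.3 to 109 CPM), stayed within 2-fold in all 6 comparisons. In primed against naive home cells 1 of 17 tested was higher, Prkra, a partner of Dicer, at 43.7 against 10.6 CPM (log2 ratio 1.94, 1.76 to 2.33), and 0 were lower, where 4.8% of all genes were higher. Prkra was lower again in Dppa5a-high cells (15.4 CPM, log2 ratio -1.45), the single one of 17 called there, where 12% of all genes were. In d8 against primed home cells 2 of 17 were called, where 24.1% of all genes were: Tut7 was higher (1.21) and Hnrnpa1, which binds let-7 precursors, lower (-1.47). In the remaining 3 comparisons 0 of 16 or 17 were called.

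Known let-7 targets other than the members were 26 listed genes, all in the table. The match CTACCTC was found in the longest annotated 3′ UTR of 17 of them (65.4%). In primed against naive home cells, 5 of 19 tested were higher and 0 lower, where 4.8% of all genes tested were higher and 6.78% lower. The median log2 ratio was 0.62 (0.02 over all genes). Among them were Ccnd2, a D-type cyclin (328 against 70.8 CPM, log2 ratio 2.20), its partner kinase Cdk6 (1.68), Arid3b (1.21) and Nr6a1 (1.08). In Dppa5a-high against primed home cells, 4 of 20 were lower, among them Ccnd2 (-1.83), Cdk6 (-1.44) and Arid3b (-1.03), and 1 was higher, Mycn (103 against 24.98 CPM, log2 ratio 2.00). Over all genes tested 3.48% were lower and 8.55% higher. Both comparisons share the primed home cells.

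In d8 against primed home cells 2 of 21 targets were higher and 4 lower, where 14.7% of all genes were higher, 9.4% lower and 24.1% called in either direction. Thbs1 (777 against 105 CPM, 2.87) and Fas (1.56) were higher, and Hmga1 (-1.70), the paralog of Hmga2, Nr6a1 (-1.41), Arid3b (-1.10) and Cdc25a (-1.07) lower. Hmga1 and Hmga2 therefore differed in direction. In Dppa5a-high against other d16 cells 4 of 22 were higher, led by Nr6a1 (2.20), Mycn (2.19) and Hmga1 (1.64), and 6 were lower, led by Irs2 (-1.42), Thbs1 (-1.38) and Ccnd2 (-1.17), where 12.1% of all genes were higher and 15.6% lower. In both comparisons of d16+10p home cells 0 of 18 and 0 of 20 were called.

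IGF2BP client mRNAs were 10 listed genes. In d8 against primed home cells 2 of 8 were higher, the hyaluronan receptor Cd44 (2.12) and the imprinted RNA H19 (1.72), where 14.7% of all genes were higher. In Dppa5a-high against other d16 cells 4 of 8 were lower and 0 higher, where 15.6% of all genes were lower and 12.1% higher. These were Igf2 (230 against 2192 CPM, log2 ratio -3.25), H19 (-1.68), Cd44 (-1.51) and Myc (-1.13). Igf2bp1 was higher in the same comparison. As cell type differs across this split, a relation of Igf2bp1 to these mRNAs was not tested. In Dppa5a-high against primed home cells 0 of 7 were called, and in both comparisons of d16+10p home cells 0 of 6 and 0 of 7.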

How the data were processed

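Single-cell RNA-seq of 5 tagged populations was read from 1 table. The deposited values are raw counts: each value is a number of reads of 1 gene in 1 cell. Per the methods, the authors trimmed reads with cutadapt 2.10, mapped them with Bowtie2 2.3.4.1 to Ensembl transcripts of GRCm38, and removed cells with ambiguous tags as doublets; no further doublet call was made here. Reads were not collapsed to molecules, and amplified reads of one molecule are not independent, so intervals cover counting error only. Reads of near-identical copies can be shared between gene symbols.

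Populations came from the tag at the start of each cell's name. CPM are summed reads scaled to 1000000, with exact Poisson intervals. Ratios are on the log2(CPM + 1) scale, with intervals from the exact binomial and without the pseudocount. Shares have Clopper-Pearson intervals after thinning to 5000 reads. A share of 0 allows up to 3 counts of the total. Clustering used Seurat 5.3.0 (R 4.3.3; 2000 variable genes without the members and listed genes, 56 components, 50 neighbours, resolution 0.8) and gave 18 clusters; a rebuilt cluster can differ from the study's. Clusters were named from marker genes. Other computation used Python 3.11.15 with SciPy 1.17.1. The ratio script was tested on simulated data.

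The members and lists were chosen with earlier results of these data known. Named genes were the members, Pou5f1 and Dppa5a, the listed pathway genes with the 3 highest and 3 lowest ratios of a comparison, and the 3 genes most like each member across clusters with at least 20 CPM in one cluster and 1000 reads; markers of clusters, further list genes past 2-fold, Dicer1 and Tut4 were added after their values were seen. Alternatives were another cell filter, pseudocount, scaling, thinning, splits, clusters and whole tags. Some genes that these rules name are not reported here. The tag library was not analysed here.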

Additional observations from a re-analysis of the deposited data

How the results depend on the processing

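Of 62 alternative counts of members, 59 were within 1.5 times the reported one. This measure is coarse for small counts, as 2 members in place of 3 lie within it. L1td1 in primed against naive home cells fell under 2-fold in 6 of 7 alternatives. For primed against naive home cells, thinning to 5000 reads gave 1 of 7 tested in place of 3 of 8: L1td1 fell to 0.85, and Lin28b was under the minimum of reads. Taking all cells of each tag gave 2 in place of 6 for d8 against primed home cells, and 2 in place of 0 for d16+10p home against Dppa5a-high cells, where the groups then hold other cell types. Among 392 ratios of single members under an alternative, 12 changed sign, none of them from a ratio of at least 2-fold, and 15 crossed 2-fold. Of the 17 ratios of at least 2-fold, 10 stayed so under every alternative run for them, including those of Lin28a and Lin28b in the primed and naive comparison. With a pseudocount of 10 CPM, Lin28a in Dppa5a-high against other d16 cells went from 1.11 to 0.66. Depth limits Lin28a and Lin28b most: Lin28b had a median of 1 read per positive cell in all 6 groups of the report. No paired analysis was possible because each population was 1 sample and no replicate numbers were shared.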
